A study of Homo sapiens with 6 samples.

Results

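The transcription factor genes of AP-1 and the immediate early response were followed in 2 prostate cancer cell lines treated with inhibitors of HSP70. The 10 genes were the FOS family (FOS, FOSB, FOSL1, FOSL2), the JUN family (JUN, JUNB, JUND), the related factors ATF3 and MAFF, and EGR1. They were taken by name from the 60658 Ensembl identifiers measured, and each symbol matched 1 identifier. C4-2B MDVR cells, an enzalutamide-resistant derivative of C4-2B that was kept in 20 µM enzalutamide, and CWR22Rv1 cells, kept without it, were exposed for 48 h to 10 µM of the HSP70 inhibitor apoptozole (APO), to 10 µM of VER155008 (VER), which blocks the ATP site of HSP70, or to the DMSO vehicle. The labels call every sample a parental line, but the titles name C4-2B MDVR, and that name was used here. RNA of each of the 6 conditions was sequenced as 1 library, so differences within a line have no replicate check. Only effects shared by both lines could be tested, with the line as a block.

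FOS and JUN proteins carry a basic leucine zipper and pair with each other to form AP-1, which binds DNA at AP-1 sites. JUN proteins can also pair among themselves, whereas FOS proteins need a partner. ATF3 and the small MAF protein MAFF belong to the same class of leucine zipper proteins, and EGR1 is a zinc finger factor. Most of these genes are switched on within minutes of a growth signal or stress through MAP kinases and switched off again soon after, so a 48 h sample records the late state and not the first pulse.

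The values are FPKM, fragment counts scaled by transcript length and by library size, and can be compared between genes. For each line they are given in the order DMSO, APO and VER. Log2 fold changes were taken on the log2(FPKM + 0.1) scale, which understates the change of genes with low values, and a gene was called higher or lower past 2-fold. The background is the share of all genes with more than 0.1 FPKM in at least 1 library of the line that passed the same threshold. All 10 genes passed that filter in both lines. The deposited values carry no read totals. Relative depth was taken from the most frequent ratio of low values of the same gene between libraries, which presumes equal fragment counts at such values. For the other 5 libraries it was 1.14 to 1.64 times that of C4-2B MDVR with DMSO. Genes of the mitochondrial chromosome held 10.4% of the summed FPKM in CWR22Rv1 with APO, against 25.7% with DMSO and 25.7% with VER, and 14.8% to 16.4% in the C4-2B MDVR libraries. All 9 luminal prostate markers examined were above 1 FPKM in every library, but 6 of them were lower past 2-fold with APO in C4-2B MDVR cells (list median -1.96), 3 with VER there (-0.60), 3 with APO in CWR22Rv1 cells (-0.64) and 0 with VER there (-0.31). Of all genes 13.3%, 13.3%, 16.8% and 8.92% were lower in these comparisons. Of the 5 leukocyte markers, 1 was above 1 FPKM in CWR22Rv1 with DMSO and 0 in the other libraries. Of the 6 fibroblast markers, 1 was above 1 FPKM in each C4-2B MDVR library, and 2 or 3 in the CWR22Rv1 libraries, where the list summed to 18.4 to 32.1 FPKM. Whether any of this contributed to the differences below was not tested, and in bulk RNA fewer expressing cells and less RNA per cell cannot be told apart.

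The promoter windows of 5 of the genes are shown because, next to ATF3, these genes had the largest mean absolute log2 fold change against DMSO. Each window holds 250 bases before and 50 bases from the RefSeq start site (GRCh38.p14), written 5′ to 3′ on the strand of the gene. The capitals mark matches, on either strand, to the AP-1-like sites TGACATCA or TTACCTCA, the cyclic AMP response element TGACGTCA, the TATA box TATAAA or the CArG box bound by SRF.

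JUN, chr1:58783998-58784297, minus strand: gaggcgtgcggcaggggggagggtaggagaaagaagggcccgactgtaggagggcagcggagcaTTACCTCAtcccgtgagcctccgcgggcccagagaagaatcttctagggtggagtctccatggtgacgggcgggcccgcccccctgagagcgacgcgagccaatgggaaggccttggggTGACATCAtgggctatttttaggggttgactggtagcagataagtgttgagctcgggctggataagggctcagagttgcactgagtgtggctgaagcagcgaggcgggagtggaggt
JUND, chr19:18281573-18281872, minus strand: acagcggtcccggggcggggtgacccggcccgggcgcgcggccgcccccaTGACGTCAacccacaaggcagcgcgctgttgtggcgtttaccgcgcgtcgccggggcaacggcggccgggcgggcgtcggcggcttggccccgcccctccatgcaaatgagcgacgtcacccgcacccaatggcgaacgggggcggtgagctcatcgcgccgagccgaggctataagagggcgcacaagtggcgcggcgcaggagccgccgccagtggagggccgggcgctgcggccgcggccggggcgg
FOS, chr14:75278578-75278877, plus strand: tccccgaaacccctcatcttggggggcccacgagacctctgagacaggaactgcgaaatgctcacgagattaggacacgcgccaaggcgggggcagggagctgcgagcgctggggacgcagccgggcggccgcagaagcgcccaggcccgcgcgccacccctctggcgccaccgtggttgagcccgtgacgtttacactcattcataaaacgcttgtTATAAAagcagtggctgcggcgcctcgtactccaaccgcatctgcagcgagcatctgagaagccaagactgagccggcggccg
MAFF, chr22:38201744-38202043, plus strand: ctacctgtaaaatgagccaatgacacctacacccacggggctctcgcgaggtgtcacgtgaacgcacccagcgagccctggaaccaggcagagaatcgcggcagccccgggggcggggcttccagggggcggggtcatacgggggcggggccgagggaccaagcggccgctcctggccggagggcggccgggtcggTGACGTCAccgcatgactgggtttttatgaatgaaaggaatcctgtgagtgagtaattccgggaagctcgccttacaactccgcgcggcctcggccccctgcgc
EGR1, chr5:138465229-138465528, plus strand: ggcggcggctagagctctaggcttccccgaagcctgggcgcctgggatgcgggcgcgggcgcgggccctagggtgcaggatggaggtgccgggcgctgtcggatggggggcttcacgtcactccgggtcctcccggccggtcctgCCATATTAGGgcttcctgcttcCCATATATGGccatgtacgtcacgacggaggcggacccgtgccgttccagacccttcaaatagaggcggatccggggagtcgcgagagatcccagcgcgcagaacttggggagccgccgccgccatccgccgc

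A match describes the letters of the window and not a bound site. The JUN window held both AP-1-like sites, at bases -186 and -67 from the start, and 3.31% of the 35116 windows in the table held either of them. The JUND window and the MAFF window shown each held a full TGACGTCA, at -200 and -54, a sequence found in 1.85% of all windows. RefSeq gives MAFF a second window (chr22:38202770-38203069), not printed, in which none of the motifs searched was found. The ATF3 windows were not printed, because neither lies at the start of the principal GENCODE transcript of ATF3. Matches in them therefore do not describe the promoter of that transcript. Of these windows, chr1:212565157-212565456 held a TGACATCA at -123. It also held the C/EBP-ATF site TGATGNAAN at -191, a motif found in 3.61% of all windows. The other ATF3 window, chr1:212614768-212615067, held a TATAAA at -230. The EGR1 window held 2 CArG boxes, at -105 and -83, and 1.29% of all windows held at least 1. FOS showed a TATAAA at -33, as 11.5% of all windows showed in some position. The shorter sequence TGACG, not capitalised here, was present in each of these 5 windows and in 24.6% of all windows, and every full TGACGTCA contains it. Canonical AP-1 sites (TGACTCA or TGAGTCA) were in none of the 5 windows and in 4.95% of all windows. Among the members with a window, FOSL2 had 1, at base 5.

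The transcripts were compact. The principal GENCODE 29 transcripts of the 10 genes had a median of 3.5 exons and a median genomic span of 5505 bp, against 9 exons and 26500.5 bp over the 15468 protein-coding genes that passed the filter and could be matched. JUN, JUNB and JUND each had 1 exon, as did 2.88% of those genes. An ATTTA pentamer, the core of AU-rich elements that mark short-lived mRNAs, occurred in the 3′ untranslated region of all 10, and in 67.1% of those genes. The longer form TTATTTAWW, where W is A or T, occurred in 3 of the 10 and in 18.7% of those genes. The median length of the 3′ untranslated region was 1228 bases in the members and 998 over those genes. The median ATTTA density was 2.09 per kb in the members and 1.496 per kb over those genes. It was highest in FOS, at 6.20 per kb, and lowest in EGR1, at 0.81 per kb.

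JUN family genes supplied most of the RNA. Summed over JUN, JUNB and JUND, the level was 142, 256 and 232 FPKM in C4-2B MDVR cells and 106, 349 and 115 FPKM in CWR22Rv1 cells. The 4 FOS family genes summed to 6.82, 7.51 and 7.83 FPKM and to 5.80, 19.1 and 5.25 FPKM. The JUN to FOS family ratio therefore lay between 18.3 and 34.1 in all libraries. JUND alone made up 59.8% to 73.8% of the JUN family sum. The FOS family was led by FOSL2 in C4-2B MDVR cells (69.7% to 83.0% of its sum) and by FOS in CWR22Rv1 cells (49.3% to 75.7%). The sum over all 10 genes was 2.78-fold (APO) and 1.91-fold (VER) the DMSO value in C4-2B MDVR cells, and 4.46-fold and 1.09-fold in CWR22Rv1 cells.

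**Figure D1:**
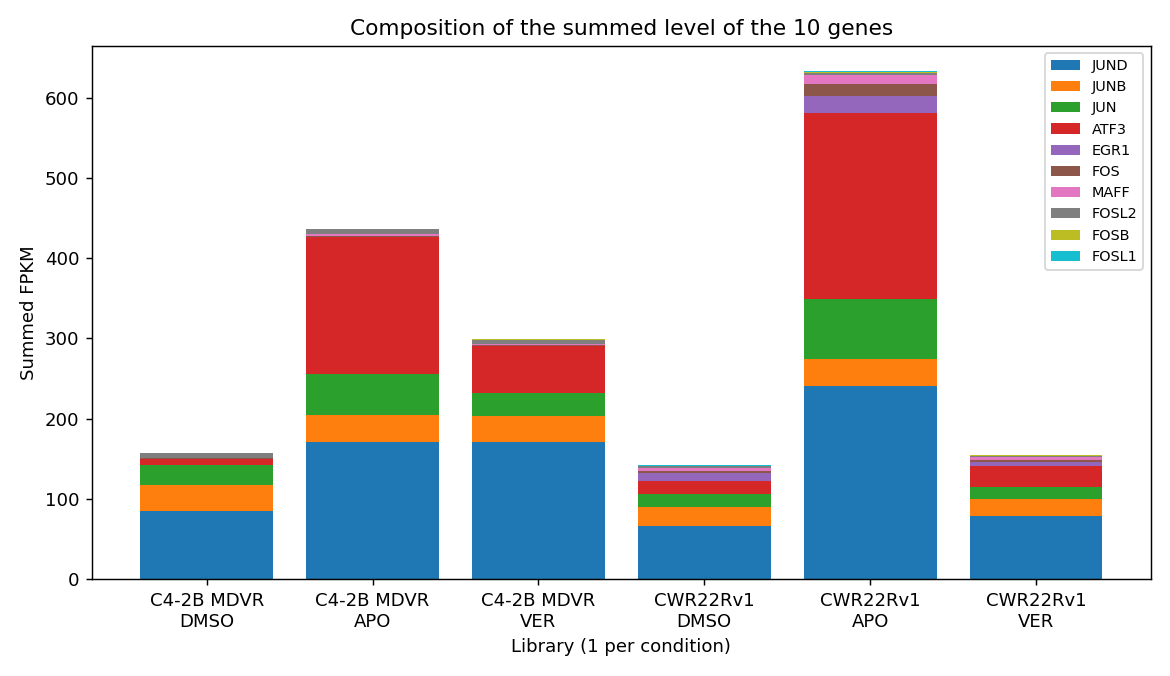
Summed FPKM of the 10 genes in each library (1 library per condition), stacked by gene. JUND and ATF3 account for most of the height with APO, where the ATF3 share of the sum was 38.9% (C4-2B MDVR) and 36.6% (CWR22Rv1) against 4.57% and 11.3% with DMSO.

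ATF3 (ENSG00000162772, chr1:212565334-212620777, plus strand), a stress-induced factor that can pair with JUN proteins and is itself a target of ATF4, was the gene that differed most. Gene positions are those of GENCODE 29 on GRCh38. Its level in C4-2B MDVR cells was 7.19 FPKM with DMSO, 169.8 FPKM with APO and 58.1 FPKM with VER. In CWR22Rv1 cells it was 16.04 FPKM with DMSO, 232 FPKM with APO and 26.7 FPKM with VER. The order was thus DMSO, VER, APO in both lines. The log2 fold changes in C4-2B MDVR cells were 4.54 (APO) and 2.999 (VER). In CWR22Rv1 cells they were 3.84 and 0.73, the latter below 2-fold. With DMSO the gene lay above 50.5% (C4-2B MDVR) and 70.6% (CWR22Rv1) of the genes over 0.1 FPKM in the library, and with APO above 96.8% and 98.2%.

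JUN (ENSG00000177606, chr1:58780788-58784327, minus strand), the c-Jun subunit of AP-1 and a substrate of JNK kinases, was at 24.4, 51.2 and 28.1 FPKM in C4-2B MDVR cells. In CWR22Rv1 cells it was at 16.1, 75.2 and 14.3 FPKM. The APO library was the highest in each line, and the VER library lay close to DMSO. The log2 fold changes with APO were 1.07 in C4-2B MDVR cells but 2.22 in CWR22Rv1 cells, and those with VER were 0.20 and -0.17. For APO the call in C4-2B MDVR cells lay near the threshold and was lost, at 0.92, after rescaling to the same summed FPKM.

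JUND (ENSG00000130522, chr19:18279760-18281622, minus strand), the JUN family member with the highest level, stood at 85.0, 171 and 171 FPKM in C4-2B MDVR cells. Both inhibitor libraries stood about equally far above DMSO, with log2 fold changes of 1.01 each, at the threshold. Under 4 of the rescaling and pseudocount alternatives the APO value fell just short of 2-fold, down to 0.84. In CWR22Rv1 cells JUND was at 66.4, 241 and 79.3 FPKM, with log2 fold changes of 1.86 (APO) and 0.26 (VER).

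JUNB (ENSG00000171223, chr19:12791496-12793315, plus strand), which can restrain JUN activity, varied least among the JUN genes. It was at 32.7, 34.2 and 32.6 FPKM in C4-2B MDVR cells and at 23.5, 33.0 and 21.1 FPKM in CWR22Rv1 cells. No difference from DMSO reached 2-fold, and the largest log2 fold change was 0.49, with APO in CWR22Rv1 cells. The whole JUNB gene lies within HOOK2 on the opposite strand, which was at 31.5 to 38.8 FPKM in C4-2B MDVR cells and at 34.99, 18.0 and 33.8 FPKM in CWR22Rv1 cells. The library kit named in the labels marks strand, but whether quantification used it is not given in the sources used here.

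FOS (ENSG00000170345, chr14:75278774-75282230, plus strand), the founding FOS family gene and a classical SRF target, was low in C4-2B MDVR cells, at 0.750 FPKM with DMSO, 1.07 FPKM with APO and 1.19 FPKM with VER. In CWR22Rv1 cells it was at 2.86, 14.4 and 2.91 FPKM. Only the APO library of CWR22Rv1 cells stood apart, with a log2 fold change of 2.30, against 0.02 with VER. In C4-2B MDVR cells the values of 0.46 and 0.60 were below 2-fold.

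FOSB (ENSG00000125740, chr19:45467995-45475179, plus strand), whose truncated splice form accumulates during long stimulation, was at 0.317, 0.567 and 1.08 FPKM in C4-2B MDVR cells. It was at 0.848, 1.29 and 0.550 FPKM in CWR22Rv1 cells. VER was therefore the highest library in one line and the lowest in the other, with log2 fold changes of 1.5001 and -0.54. At this level the pseudocount matters, and with a pseudocount of 1 FPKM the former was 0.66. FOSB lies entirely within the span of ERCC1 on the opposite strand. ERCC1 was at 17.0, 22.1 and 28.6 FPKM in C4-2B MDVR cells, the same order of libraries as FOSB. In CWR22Rv1 cells ERCC1 was at 19.3, 22.0 and 20.2 FPKM. Whether fragments of ERCC1 contributed to the FOSB values was not tested.

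FOSL2 (FRA-2, ENSG00000075426, chr2:28392448-28417312, plus strand) and FOSL1 (FRA-1, ENSG00000175592, chr11:65892049-65900573, minus strand) are the FOS genes that lack a strong activation domain. FOSL2 was at 5.66, 5.72 and 5.46 FPKM in C4-2B MDVR cells and at 1.72, 3.01 and 1.71 FPKM in CWR22Rv1 cells. Its largest log2 fold change was 0.77, with APO in CWR22Rv1 cells. FOSL1 never exceeded 0.375 FPKM. It was at 0.0959, 0.153 and 0.108 FPKM in C4-2B MDVR cells and at 0.375, 0.343 and 0.0763 FPKM in CWR22Rv1 cells. The log2 fold change of -1.43 with VER in CWR22Rv1 cells thus rests on values near the 0.1 FPKM filter, and it was -0.35 with a pseudocount of 1 FPKM.

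MAFF (ENSG00000185022, chr22:38200767-38216511, plus strand), a small MAF protein without an activation domain that pairs with NRF2-type factors, was at 0.736, 3.14 and 1.78 FPKM in C4-2B MDVR cells. In CWR22Rv1 cells it was at 3.96, 11.4 and 3.59 FPKM. APO was the highest library in both lines. The log2 fold changes with APO were 1.95 and 1.51. With VER they were 1.17 and -0.14, and the former was 0.68 with a pseudocount of 1 FPKM. Part of the gene overlaps PLA2G6 on the opposite strand, which was at 11.6 to 13.0 FPKM in C4-2B MDVR cells and at 23.7, 15.3 and 29.4 FPKM in CWR22Rv1 cells.

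EGR1 (ENSG00000120738, chr5:138465490-138469315, plus strand), a zinc finger factor induced through SRF and ELK proteins, followed another pattern. It was at 0.472, 0.279 and 0.123 FPKM in C4-2B MDVR cells and at 10.2, 21.7 and 4.15 FPKM in CWR22Rv1 cells. VER was the lowest library in both lines, with log2 fold changes of -1.36 and -1.27. The former was -0.39 with a pseudocount of 1 FPKM. With APO they were -0.59 in C4-2B MDVR cells but 1.09 in CWR22Rv1 cells. The latter was 0.94 when the libraries were rescaled to the same FPKM outside the mitochondrial chromosome.

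**Figure D2:**
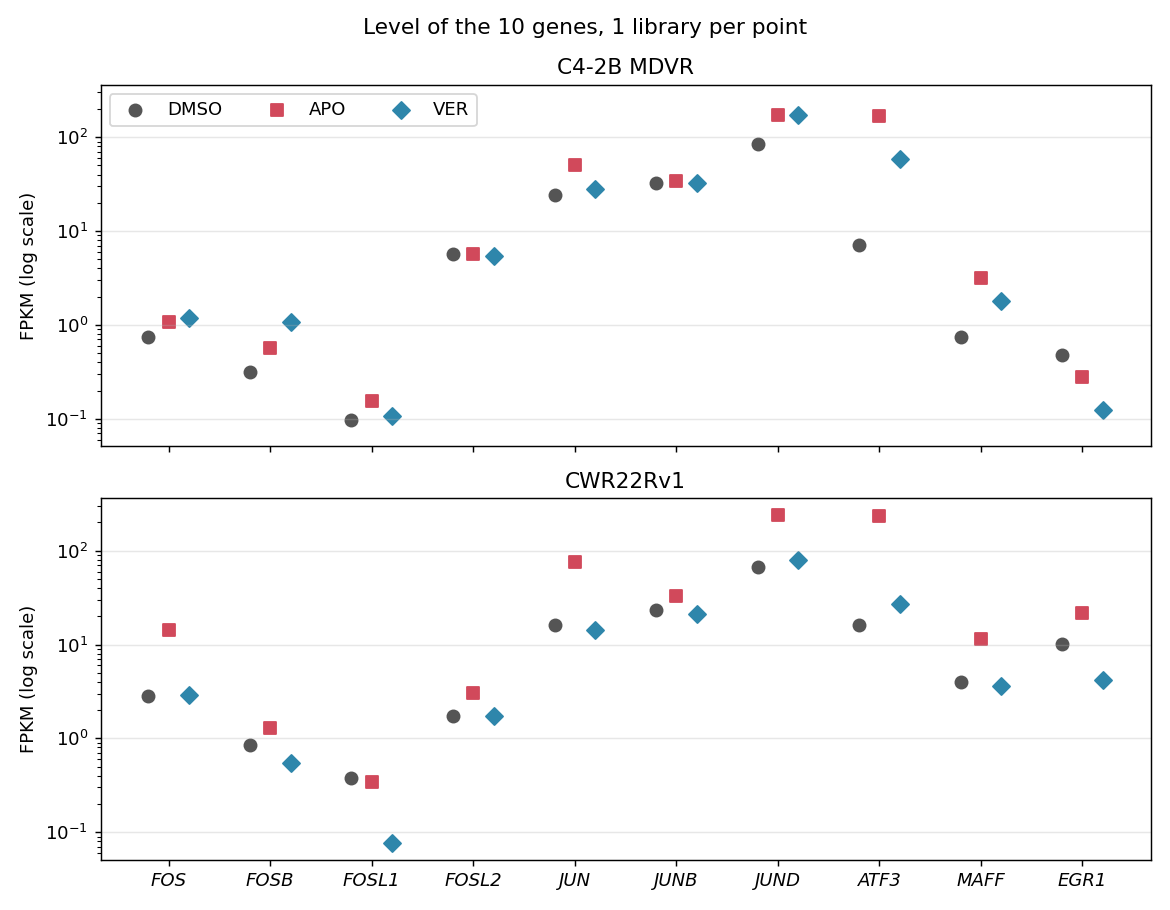
FPKM of each gene on a log scale in C4-2B MDVR (top) and CWR22Rv1 cells (bottom), 1 point per library, with DMSO as circles, APO as squares and VER as diamonds. In CWR22Rv1 cells APO is the highest library for 9 of the 10 genes, FOSL1 being the exception, and VER lies close to or below DMSO for most.

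In C4-2B MDVR cells, 4 of the 10 genes were past 2-fold with APO (ATF3, JUN, JUND and MAFF), all higher, against a background of 15.4% higher and 13.3% lower among 20122 genes. With VER, 4 were higher (ATF3, FOSB, JUND and MAFF) and 1 was lower (EGR1), against 14.4% and 13.3%. In CWR22Rv1 cells, 6 of the 10 genes were higher with APO (ATF3, EGR1, FOS, JUN, JUND and MAFF) and 0 lower, against 13.8% higher and 16.8% lower among 21608 genes. With VER, 0 were higher and 2 were lower (EGR1 and FOSL1), against 10.8% and 8.92%. The median log2 fold change of the 10 genes with APO was 0.57 in C4-2B MDVR cells but 1.30 in CWR22Rv1 cells. With VER it was 0.40 and -0.15. Over all genes above the filter the medians lay between -0.01 and 0. The APO and VER comparisons of a line share its DMSO library. ATF3, JUND and MAFF were higher past 2-fold in 3 of the 4 comparisons, and 0 of the 10 genes in all 4. The share of all genes that recurred in this way was not determined.

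Effects common to both lines were tested with limma across 23671 genes, with the line as a block, which left 2 residual degrees of freedom. The error of a gene itself is how far the lines differ in their response. Limma drew that error toward a trend over all genes, a prior that weighed as 5.01 degrees of freedom. With APO, ATF3 was higher by 4.19 ± 0.47 (log2, SE) over both lines, with a limma adjusted p of 0.0194, and higher in 2 of 2 lines. It was the only one of the 10 genes called, against a background of 1.44% higher and 0.938% lower. JUN (1.64 ± 0.35, limma adjusted p = 0.0651), MAFF (1.73 ± 0.41, 0.0791) and JUND (1.43 ± 0.35, 0.0836) were higher in both lines without passing 0.05. FOS, at 1.38 ± 0.59, had a limma adjusted p of 0.259. Under APO an unadjusted limma p under 0.05 was found for 4 of the 10 and for 4688 of the 23671 genes. With VER 0 of the 10 genes passed, against 0.0549% higher and 0.00845% lower of all genes. An unadjusted limma p under 0.05 was found for 2 of the 10, ATF3 and EGR1, and for 3235 of the 23671 genes. The values were 1.87 ± 0.47 for ATF3 (adjusted p = 0.164) and -1.32 ± 0.52 for EGR1 (0.330). For VER against APO 0 of the 10 passed in limma, against 0.00% higher and 0.00422% lower of all genes. In this contrast 4 of the 10 had an unadjusted limma p under 0.05, as did 2415 of the 23671 genes. The limma adjusted p of ATF3 with APO ranged from 0.00144 to 0.397 over the alternatives. It was above 0.05 in 1 of them, the fit without a filter on low FPKM, where the prior weighed as 0.248 degrees of freedom.

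**Figure D3:**
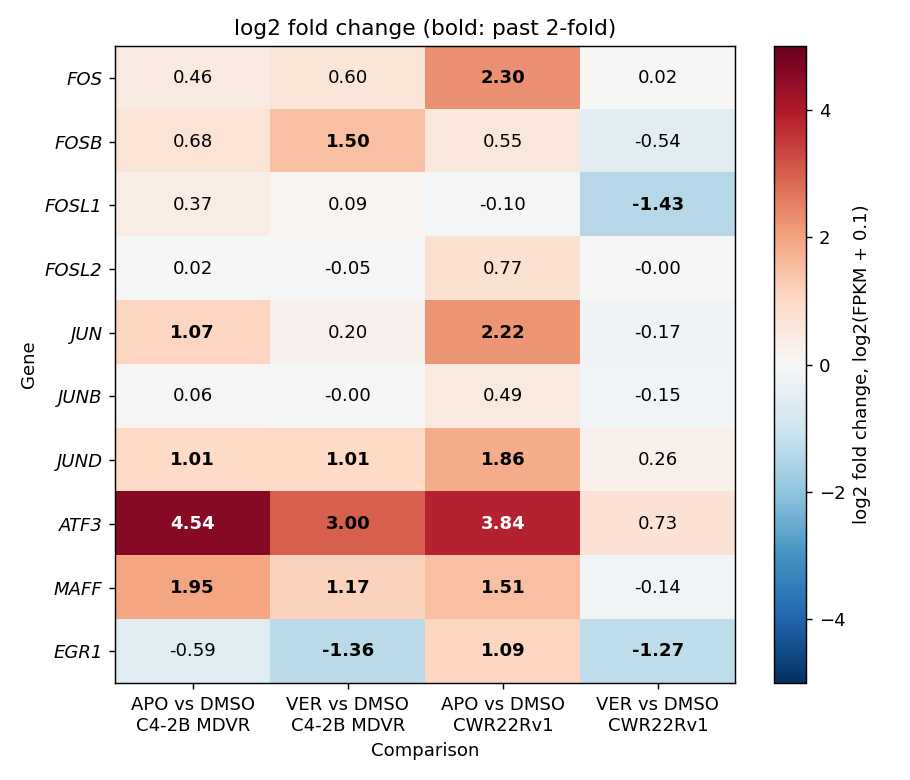
Log2 fold change of each gene (rows) in the 4 comparisons of an inhibitor with DMSO (columns), on the log2(FPKM + 0.1) scale, with values past 2-fold in bold. ATF3 has the highest value in each column, at 4.54, 2.999, 3.84 and 0.73, and in the last column (VER in CWR22Rv1 cells) the values of FOSL1 (-1.43) and EGR1 (-1.27) are larger in absolute size.

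The 2 inhibitors were also compared with each other at the same dose and time. In CWR22Rv1 cells 8 of the 10 genes were lower with VER than with APO by more than 2-fold, against a background of 10.5% lower and 15.6% higher, and JUNB and FOSL2 were lower by less. The log2 differences, VER minus APO, ran from -3.11 for ATF3 to -0.64 for JUNB, with a median of -1.62. In C4-2B MDVR cells only ATF3 was past 2-fold, at -1.54, against 10.5% lower and 8.68% higher. JUN stood at -0.86, MAFF at -0.78 and EGR1 at -0.77, while FOSB was at 0.82 and JUND at 0.0027. The shift in CWR22Rv1 cells is between VER and an APO library in which the share of mitochondrial FPKM was lower. After rescaling to the same FPKM outside the mitochondrial chromosome the count of lower members was again 8. Among all 21608 genes 2239 were then lower and 3976 higher. With a pseudocount of 1 FPKM the count of lower members was 6, without FOSB (-0.56) and FOSL1 (-0.32). Among all 21608 genes 672 were lower and 1024 higher in that setting.

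With DMSO alone the lines differed in which members they expressed. In CWR22Rv1 cells 6 genes were more than 2-fold higher than in C4-2B MDVR cells (EGR1, MAFF, FOS, FOSL1, FOSB and ATF3), and FOSL2 was lower, against a background of 24.0% higher and 17.1% lower among 23671 genes. EGR1 had the largest log2 difference, at 4.16, followed by MAFF at 2.28 and FOS at 1.80. FOSL2 was at -1.66. With a pseudocount of 1 FPKM the calls of FOSL1 (0.33) and FOSB (0.49) were lost. The JUN genes differed by less than 2-fold between the lines, at -0.60 for JUN, -0.47 for JUNB and -0.36 for JUND. The 2 lines also differed in enzalutamide in the medium, which cannot be told apart from the line.

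The 5 lists of related genes, with 99 entries in all, were examined beside the members, and the share of all genes past 2-fold in the same direction is given beside each count. Among 18 bZIP partners and relatives, 6 of the 15 above the filter were higher and 1 lower with APO in C4-2B MDVR cells (all genes 15.4% and 13.3%), and 6 were higher and 2 lower with VER (14.4% and 13.3%). In CWR22Rv1 cells 7 of 17 were higher and 2 lower with APO (13.8% and 16.8%), and 3 were higher and 1 lower with VER (10.8% and 8.92%). The list medians were 0.69, 0.58, 0.68 and 0.14 in this order. DDIT3 (CHOP), a stress factor that pairs with C/EBP proteins and ATF3, was at 18.5, 437 and 185 FPKM in C4-2B MDVR cells and at 49.3, 753 and 125 FPKM in CWR22Rv1 cells. JDP2, a repressor that pairs with JUN, was at 15.7, 53.2 and 33.8 FPKM and at 3.19, 27.5 and 8.07 FPKM. These were the genes of the lists past 2-fold upward in all 4 comparisons. The comparisons of a line share its DMSO library, and the share of all genes that recurred in this way was not determined. CEBPB, a C/EBP factor, had log2 fold changes of 2.46, 1.66, 2.81 and 0.88.

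Of the 22 other immediate early genes, 2 of the 17 above the filter were higher and 2 lower with APO in C4-2B MDVR cells (all genes 15.4% and 13.3%), and 5 of 21 were higher and 2 lower in CWR22Rv1 cells (13.8% and 16.8%). With VER the counts were 4 and 4 (14.4% and 13.3%), and 3 and 1 (10.8% and 8.92%). With a pseudocount of 1 FPKM the counts with APO were 0 and 2, and 2 and 1, and those with VER were 1 and 1, and 2 and 1. Of all genes that setting called 1083 higher and 925 lower with APO in C4-2B MDVR cells (of 20122), and 1097 and 1287 in CWR22Rv1 cells (of 21608). With VER it called 945 and 941, and 465 and 359. The list medians, with the pseudocount of 0.1 FPKM, were -0.40 and 0.42 with APO and -0.15 and -0.17 with VER. KLF4, a zinc finger factor, was at 2.67, 5.87 and 5.71 FPKM in C4-2B MDVR cells and at 6.96, 40.0 and 11.3 FPKM in CWR22Rv1 cells. BTG2, an antiproliferative p53 target, was instead highest with VER, with log2 fold changes of 2.13 and 2.07, against -0.15 and 0.85 with APO. SGK1, a kinase gene induced by steroid receptors, was at 10.3, 1.48 and 1.70 FPKM in C4-2B MDVR cells and at 2.08, 1.92 and 0.489 FPKM in CWR22Rv1 cells.

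Of the 20 genes of MAP kinases, their activators and SRF cofactors, 1 was lower and 0 higher with APO in C4-2B MDVR cells (all genes 13.3% and 15.4%), and 1 was higher and 0 lower with APO in CWR22Rv1 cells (13.8% and 16.8%). With VER 0 passed 2-fold in either line, where 14.4% (C4-2B MDVR) and 10.8% (CWR22Rv1) of all genes were higher and 13.3% and 8.92% lower. The medians were between -0.18 and 0.14. The kinase gene MAP2K6, which activates p38, was the one that was higher, at 4.46 FPKM under DMSO and 28.3 FPKM under APO in CWR22Rv1 cells. ELK4, an SRF cofactor, was the one that was lower, at 35.01 and 13.9 FPKM in C4-2B MDVR cells. MAP2K7, an activator of JNK, had log2 fold changes of -0.62, -0.55, -0.25 and -0.70, none past 2-fold.

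Of 18 listed feedback inhibitors, 3 were higher and 1 lower with APO in C4-2B MDVR cells (all genes 15.4% and 13.3%). In CWR22Rv1 cells 7 were higher and 1 lower with APO (13.8% and 16.8%). With VER 2 were higher and 1 lower in the first line (14.4% and 13.3%), and 1 was higher and 0 lower in the second (10.8% and 8.92%). The medians were 0.39 and 0.81 with APO and -0.17 and -0.25 with VER. DUSP5, a phosphatase of nuclear ERK, was at 1.25, 8.86 and 3.57 FPKM in C4-2B MDVR cells and at 0.252, 2.17 and 0.270 FPKM in CWR22Rv1 cells. DUSP6, the cytoplasmic ERK phosphatase, had log2 fold changes of 1.71 (APO) and 1.05 (VER) in the first line and of 1.98 and -0.34 in the second. The log2 fold changes of DUSP4 in CWR22Rv1 cells were 2.11 under APO and 1.10 under VER, against -0.85 and -0.06 in C4-2B MDVR cells.

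Of 21 known AP-1 targets, 8 of the 15 above the filter were higher and 4 lower with APO in C4-2B MDVR cells (all genes 15.4% and 13.3%), and 7 of 18 were higher and 3 lower in CWR22Rv1 cells (13.8% and 16.8%). With VER the counts were 2 and 4 (14.4% and 13.3%), and 3 and 0 (10.8% and 8.92%). Several of these calls rest on genes near 0 FPKM. With a pseudocount of 1 FPKM the counts with APO were 3 higher and 1 lower, and 2 higher and 3 lower, which turns the balance in CWR22Rv1 cells. Those with VER were 2 and 1, and 1 and 0. Of all genes that setting called 1083 higher and 925 lower with APO in C4-2B MDVR cells (of 20122), and 1097 and 1287 in CWR22Rv1 cells (of 21608). With VER it called 945 and 941, and 465 and 359. The list medians, with the pseudocount of 0.1 FPKM, were 1.0013 and 0.62 with APO and -0.06 and 0.06 with VER. HMOX1, heme oxygenase 1, was at 14.1, 145 and 34.9 FPKM in C4-2B MDVR cells and at 3.89, 22.5 and 5.45 FPKM in CWR22Rv1 cells. AREG, an EGF receptor ligand, was listed at 0 under DMSO, 0.853 under APO and 0.0490 under VER in C4-2B MDVR cells. Its level in CWR22Rv1 cells was 1.24, 51.8 and 4.997 FPKM. MMP13, a collagenase, was at 0.364, 3.73 and 4.92 FPKM in C4-2B MDVR cells and at 0.0246, 0.226 and 0.113 FPKM in CWR22Rv1 cells.

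**Figure D4:**
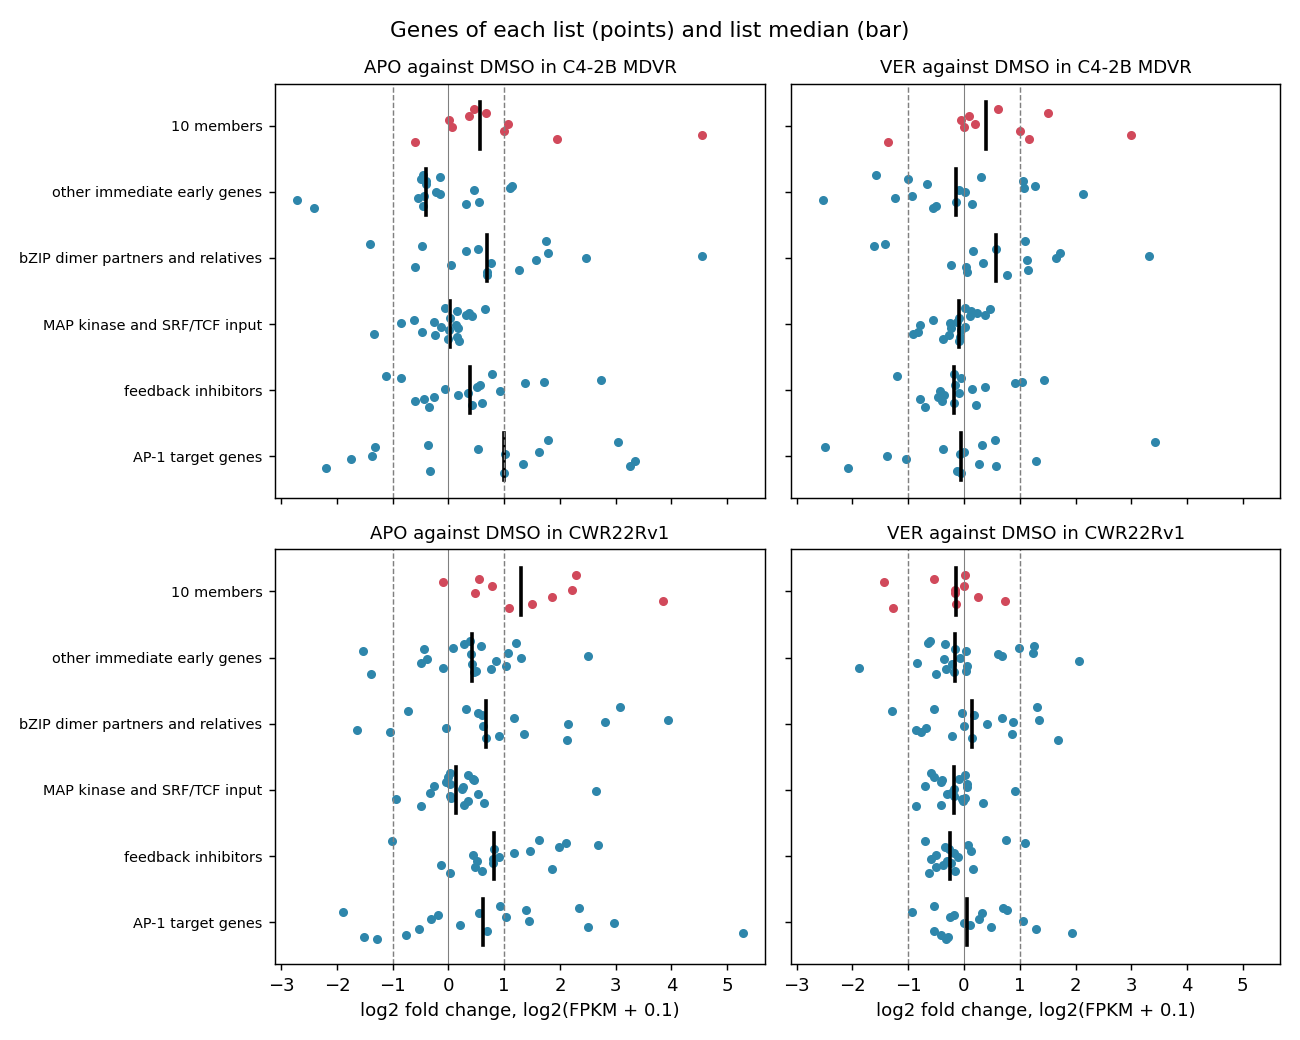
Log2 fold change of every gene above the filter of the 10 members and of the 5 related lists in each of the 4 comparisons with DMSO, with the list median as a black bar and 2-fold as dashed lines. With APO in CWR22Rv1 cells 6 members lie to the right of the 2-fold line, and with VER in the same line 0 do.

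The genes with profiles nearest to the 3 members that differed most were found by Euclidean distance over the 4 log2 fold changes, over 14241 genes whose mean level was 1 FPKM or more. The comparisons within a line share a DMSO library, and with 4 points per gene the ranking is a description only. Nearest to ATF3 were DDIT3 at a distance of 0.69, SERPINB8 at 1.03 and NIBAN1 at 1.07. Nearest to MAFF were RGS3 at 0.18, SIAH1 at 0.38 and HOXB9 at 0.40. For EGR1 the nearest named genes were STXBP4 at 0.73 and CNTRL at 0.77, after an identifier without a symbol at 0.69.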

How the data were processed

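Polyadenylated RNA was sequenced from paired-end libraries, and the processing notes of the submitters name HISAT, Cufflinks, Cuffnorm and GRCh38. The methods of the study also name TopHat and StringTie. The authors deposited FPKM per gene from Cuffnorm, 1 table for each library, after scaling the libraries to each other. Versions and the annotation release are not given in the sources used here.

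Symbols were matched by Ensembl identifier, locations and transcripts were taken from GENCODE 29, and promoter windows from RefSeq, which had them for 9 of the 10 members. Fold changes were computed from log2(FPKM + 0.1) and called past 2-fold, because most genes pass the 1.2-fold threshold of the study. Genes over 0.1 FPKM in at least 1 library of the line (of all 6 libraries between lines) were compared. With 1 library per condition no test was made within a line. Effects shared by both lines were tested with limma 3.58.1 (R 4.3.3) on log2(FPKM + 0.1) with terms for line and treatment, a trended prior and Benjamini-Hochberg adjustment, a fit added after the data were seen. Depth in reads is unknown.

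The members and lists were chosen with earlier results of these data known. The genes named are all members, the 3 genes of each list with the largest mean absolute log2 fold change among those at a mean level of 1 FPKM or more, listed genes past 2-fold one way in all 4 comparisons, and the 3 nearest profiles of the 3 most changed members. Genes named because a count was small were chosen after their values were seen. The functions were tested on simulated data. The alternatives were other pseudocounts, filters, rescalings and thresholds. Python 3.11.15, pandas 2.3.3, numpy 2.4.6 and matplotlib 3.10.9 were used.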

Additional observations from a re-analysis of the deposited data

Results flagged for a closer look

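EGR1 and FOSB are listed here because the same inhibitor moved them in opposite directions in the 2 lines by more than 1.2-fold each way. The log2 fold change of EGR1 with APO was -0.59 in C4-2B MDVR cells but 1.09 in CWR22Rv1 cells, a difference of 1.68. That of FOSB with VER was 1.5001 in C4-2B MDVR cells but -0.54 in CWR22Rv1 cells, a difference of -2.04 (CWR22Rv1 minus C4-2B MDVR). Neither difference was tested, since each condition has 1 library. EGR1 in C4-2B MDVR cells and FOSB in either line were at or below 1.29 FPKM.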

How the results depend on the processing

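Pairing the treatments by line (limma with the line as a replicate block, added after seeing the data) called 1 member with APO, 0 with VER and 0 for VER against APO. With APO it called 0 without a filter on low FPKM and 2, JUN besides ATF3, after rescaling to TPM, and 1 under the 5 other alternatives. Over all genes this fit called 562 with APO (1 to 768 over the alternatives, the lowest without a filter), 15 with VER (0 to 186) and 1 for VER against APO (1 to 3). Of 480 recomputed log2 fold changes of members, 463 kept their direction and their side of 2-fold or were uncalled throughout, 15 fell below 2-fold, 2 rose past it and 0 called values changed sign. Of 63 counts of members past 2-fold, 11 moved by more than 1.5 times. With a pseudocount of 1 FPKM the count with VER was 2 in C4-2B MDVR (5 as reported) and 1 in CWR22Rv1 cells (2 as reported). Over all genes 945 were then higher and 941 lower of 20122, and 465 and 359 of 21608. Among genes above 1 FPKM the count was 1 in CWR22Rv1 cells, beside 969 higher and 711 lower of all 15245. With APO in C4-2B MDVR cells the count was 2 (4 as reported) after rescaling to the same sum (TPM) or to the same sum outside the mitochondrial chromosome. JUN and JUND, at the threshold, were lost there. All genes gave 2875 higher and 3325 lower, and 2906 and 3428, of 20122. For VER against APO in C4-2B MDVR cells the count was 2 (1 as reported) with a pseudocount of 0.01 FPKM and with the rescaling outside the mitochondrial chromosome. That rescaling was chosen after seeing the data. All genes gave 2202 higher and 2588 lower, and 2304 and 2053, of 20122. At 1.2-fold the counts were 8 with APO in C4-2B MDVR, 4 with VER in CWR22Rv1 cells and 6 for VER against APO in C4-2B MDVR cells. The last was 5 at 1.5-fold. Larger counts follow from the lower threshold. Of all genes 7582 were higher and 7118 lower at 1.2-fold in the first comparison (of 20122), and 6926 and 6979 in the second (of 21608). For VER against APO in C4-2B MDVR cells 5740 and 6536 passed at 1.2-fold, and 3099 and 3561 at 1.5-fold (of 20122). By construction a larger pseudocount shrinks the values of members with low FPKM, and a rescaling shifts all genes of a library together. Rescaling to TPM gave a median over genes above 1 FPKM of -0.13 with APO in C4-2B MDVR, 0.11 with APO in CWR22Rv1 and -0.21 for VER against APO in CWR22Rv1 cells; the other rescaling moved it to -0.15 and -0.16 with APO in the 2 lines. The values of FOSL2 and JUNB with APO in C4-2B MDVR cells, 0.02 and 0.06, were -0.14 and -0.10 at their lowest. Of 245 counts of the related lists, 72 moved by more than 1.5 times.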

Other observations

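Some listed AP-1 targets separated the lines more than any treatment did; they were chosen after their values were seen. CD44, a hyaluronan receptor, was listed at 0, 0.0808 and 0.0835 FPKM in C4-2B MDVR cells (DMSO, APO, VER) and was at 27.8, 24.4 and 24.6 FPKM in CWR22Rv1 cells. TIMP1, an inhibitor of metalloproteinases, was listed at 0, 0.209 and 0 FPKM in C4-2B MDVR cells and was at 157, 127 and 189 FPKM in CWR22Rv1 cells. The phosphatase gene DUSP2, one of the feedback inhibitors, was at 71.2, 32.8 and 30.9 FPKM in C4-2B MDVR cells and at 14.0, 6.94 and 8.55 FPKM in CWR22Rv1 cells.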
